A study of Mus musculus with 135 samples.

Results

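H3K4me3, a histone mark (trimethylated lysine 4 of H3) found at promoters, was compared between male germ cells and hepatocytes of the founder strains C57BL/6J (B6) and DBA/2J (D2). The members were H3K4me3 peaks, chosen by position alone. A germ cell peak and a hepatocyte peak were matched where each covered at least 50% of the other, which gave 8412 pairs out of 67114 germ cell peaks and 29138 hepatocyte peaks. Peaks that touched no peak of the other cell type formed the remaining members, 50224 in germ cells (74.8%) and 13525 in hepatocytes (46.4%). Coordinates are those of the deposited peak lists on mm10 (GRCm38). Peaks that overlapped by less, 8478 in germ cells and 7201 in hepatocytes, entered the sums per gene described further on.

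Of 135 samples in the series, which was made to map loci that control the mark, 12 were used: 3 libraries each of B6 germ cells, D2 germ cells, B6 hepatocytes and D2 hepatocytes. Germ cells were a crude preparation from males at 14 days post-partum (dpp), so somatic cells of the testis can be present. Hepatocytes came from females aged 8 weeks. All animals were inbred and otherwise untreated as far as the labels say. The libraries also differed in the lot of the Millipore antibody (2557645 in germ cells, 2746331 in hepatocytes) and in the kit (NEXTflex in germ cells, KAPA hyper in hepatocytes). Cell type cannot be told apart from sex, age, antibody lot, kit and a peak list made separately for each cell type. Reads in peaks numbered 6.93 to 30.3 M (megareads) per germ cell library and 9.83 to 14.7 M per hepatocyte library. Whether the libraries of a strain came from different animals is not stated, so p-values measure the spread between these libraries.

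H3K4me3 is laid down by the SET1 and MLL families of methyltransferases at promoters that are active or held ready for use, and it stays there most broadly at genes that define a cell type. In male germ cells the methyltransferase PRDM9 adds the same mark away from promoters, where meiotic double-strand breaks are then made. At 14 dpp the first wave of germ cells is in meiotic prophase, when chromosomes pair along the synaptonemal complex, recombine, and silence transposons through piRNAs. Hepatocytes secrete plasma proteins, make bile acids, detoxify compounds, and run gluconeogenesis and the urea cycle under transcription factors such as HNF4A and FOXA2.

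Promoters that carried a peak in germ cells and none in hepatocytes are shown first, because a peak in 1 list only is the largest group of germ cell peaks. Sycp3 encodes an axis protein of the synaptonemal complex (chr10:88459337-88459586, plus strand), Hormad1 a meiotic axis protein (chr3:95559427-95559676, plus strand), Mael a piRNA pathway factor (chr1:166238745-166238994, minus strand) and Dmc1 the meiotic recombinase (chr15:79605110-79605359, minus strand). Each line gives the 250 bases before the start of transcription in RefSeq assembly GRCm38.p6, 5′ to 3′, and the start is that of GENCODE M21. Capitals mark the E-box CACGTG, bound by MYC, MAX and MGA, and in Hormad1 also matches to E2F (GGCGGGAA), MYB (AACNGTCA, here on the other strand) and NRF1 motifs. Counted from the start, the E-box began 64 and 43 bases before it in Sycp3, 57 and 20 bases before it in Hormad1, and 223 bases before it in Mael. Dmc1 held none of the motifs searched.
Sycp3: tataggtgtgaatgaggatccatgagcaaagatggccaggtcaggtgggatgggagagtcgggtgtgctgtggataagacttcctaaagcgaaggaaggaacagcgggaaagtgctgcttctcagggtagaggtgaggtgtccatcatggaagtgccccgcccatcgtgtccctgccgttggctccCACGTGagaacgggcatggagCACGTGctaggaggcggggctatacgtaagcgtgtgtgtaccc
Hormad1: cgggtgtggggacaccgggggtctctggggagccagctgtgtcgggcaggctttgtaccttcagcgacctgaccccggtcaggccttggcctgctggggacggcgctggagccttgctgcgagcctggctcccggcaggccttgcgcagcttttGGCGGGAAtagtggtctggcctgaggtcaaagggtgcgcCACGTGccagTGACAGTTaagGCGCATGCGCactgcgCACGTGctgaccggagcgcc
Mael: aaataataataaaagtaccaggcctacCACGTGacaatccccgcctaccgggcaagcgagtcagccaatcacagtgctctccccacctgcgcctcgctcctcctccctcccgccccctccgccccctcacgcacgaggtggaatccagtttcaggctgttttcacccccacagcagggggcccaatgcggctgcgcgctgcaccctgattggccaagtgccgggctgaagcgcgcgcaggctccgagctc
Dmc1: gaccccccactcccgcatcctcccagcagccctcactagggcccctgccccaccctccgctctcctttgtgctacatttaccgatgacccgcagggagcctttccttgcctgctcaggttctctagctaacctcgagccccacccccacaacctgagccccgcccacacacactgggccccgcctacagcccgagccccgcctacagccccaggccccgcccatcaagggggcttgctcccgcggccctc

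Set beside them are promoters with a peak in hepatocytes and none in germ cells. Alb encodes serum albumin (chr5:90460620-90460869, plus strand), Serpinc1 antithrombin (chr1:160978333-160978582, plus strand), Cyp2c29 a cytochrome P450 of drug metabolism (chr19:39286835-39287084, plus strand) and G6pc glucose-6-phosphatase (chr11:101367466-101367715, plus strand). Capitals mark the TATA box TATAAA. It began 19 bases before the start in Cyp2c29 and 29 bases before it in G6pc, and neither Alb nor Serpinc1 held a motif searched. These hepatocyte promoters held 0 to 2 CpG dinucleotides each (Alb, Serpinc1 and G6pc 2, Cyp2c29 0), against 12 to 19 in the germ cell promoters shown (Sycp3 and Dmc1 12, Mael 18, Hormad1 19). The promoters shown are examples and do not stand for their classes. Of all protein-coding promoters with a peak in germ cells only 36.5% had a CpG ratio (observed over expected) above 0.6, and with a peak in hepatocytes only 37.8%. TATAAA was present in 15.4% of promoters with a peak in hepatocytes only and 10.8% with a peak in germ cells only. It was present in 24.9% with a peak in neither and in 12.5% of all.
Alb: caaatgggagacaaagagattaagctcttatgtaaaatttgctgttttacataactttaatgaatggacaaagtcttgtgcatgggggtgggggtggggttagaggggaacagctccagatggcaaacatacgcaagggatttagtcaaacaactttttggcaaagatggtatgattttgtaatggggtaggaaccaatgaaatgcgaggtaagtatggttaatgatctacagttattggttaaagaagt
Serpinc1: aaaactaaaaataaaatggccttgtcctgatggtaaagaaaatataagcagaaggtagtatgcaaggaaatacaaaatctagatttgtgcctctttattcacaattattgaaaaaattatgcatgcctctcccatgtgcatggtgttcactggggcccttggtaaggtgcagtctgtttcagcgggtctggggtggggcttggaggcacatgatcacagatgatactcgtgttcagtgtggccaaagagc
Cyp2c29: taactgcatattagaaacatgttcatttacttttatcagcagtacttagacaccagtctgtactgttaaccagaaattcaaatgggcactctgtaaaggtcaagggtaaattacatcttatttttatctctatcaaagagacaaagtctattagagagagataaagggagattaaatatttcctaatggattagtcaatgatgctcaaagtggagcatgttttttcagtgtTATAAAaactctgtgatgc
G6pc: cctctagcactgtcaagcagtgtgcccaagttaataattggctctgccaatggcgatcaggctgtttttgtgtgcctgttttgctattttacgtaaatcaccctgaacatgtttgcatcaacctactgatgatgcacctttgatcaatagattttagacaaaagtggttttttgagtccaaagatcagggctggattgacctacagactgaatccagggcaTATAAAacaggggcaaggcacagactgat

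Germ cells had more peaks than hepatocytes, and most of the excess lay away from promoters. Peaks no farther than 1 kb from an annotated start were called promoter peaks, and the others distal. Of germ cell peaks 29.0% were at promoters (19447), and of hepatocyte peaks 43.3% (12616). Distal peaks seen in germ cells alone numbered 41972, with a median of 4.21 CPM (reads in a peak per 1000000 reads in peaks), and those seen in hepatocytes alone 11809, with a median of 6.43 CPM. Peaks seen in germ cells alone took 34.0 to 44.9% of the reads of each germ cell library, and those seen in hepatocytes alone took 18.5 to 19.5% of the reads of each hepatocyte library. A peak of 1 list has no count in the other cell type, so these differences were not tested and the mark may be present below the threshold of the other list. The germ cell list is also named as one that includes hybrids of the founders, and the hepatocyte list is not. The lists were thus not made from like samples, and the part of this in the numbers of peaks was not tested.

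**Figure D1:**
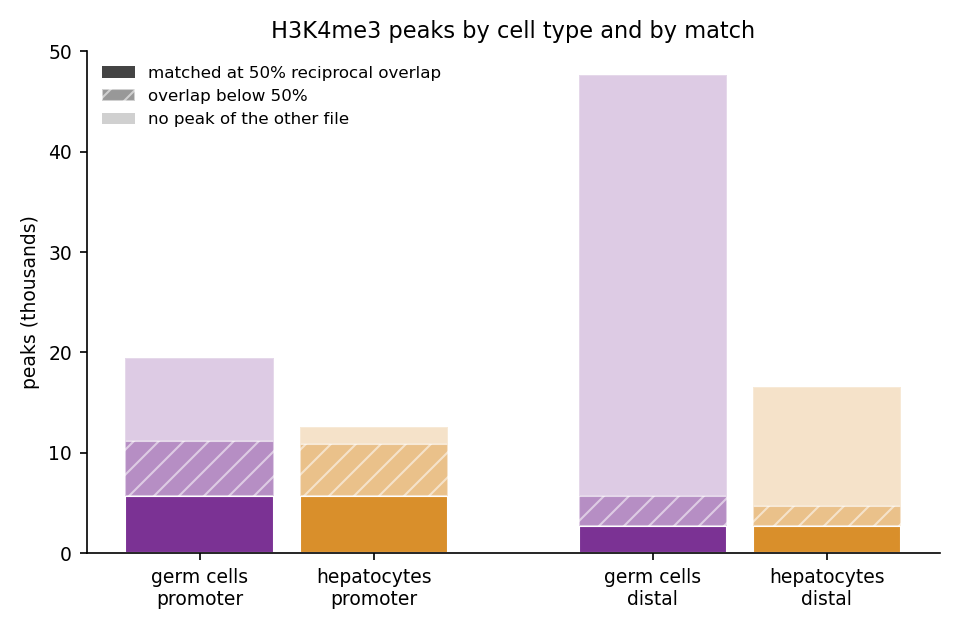
Number of H3K4me3 peaks (in units of 1000, linear axis from 0) at promoters and away from them, in germ cells and in hepatocytes. Solid bars are the 8412 matched pairs, hatched bars peaks with a smaller overlap, and pale bars peaks of 1 list, which make up most distal germ cell peaks (41972 of 47667).

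Promoter peaks were narrower in germ cells. Matched promoter peaks had a median width of 3381 bases in germ cells and 4853 bases in hepatocytes. Summed over all promoter peaks of a gene, the median width was 3341 bases in germ cells and 6446 bases in hepatocytes over the 14295 genes with a promoter peak in both cell types. The sum was wider in hepatocytes at 83.9% of these genes, by a median of 1.84-fold. At least 10 kb of promoter peak was found at 122 genes in germ cells (0.9%) and at 2358 genes in hepatocytes (16.5%). The 10 hepatocyte transcription factors with a peak in both had a median of 4380 bases in germ cells and 18918 bases in hepatocytes. Developmental transcription factors ran the other way, with 6734 bases in germ cells and 1895 bases in hepatocytes over 7 genes.

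**Figure D2:**
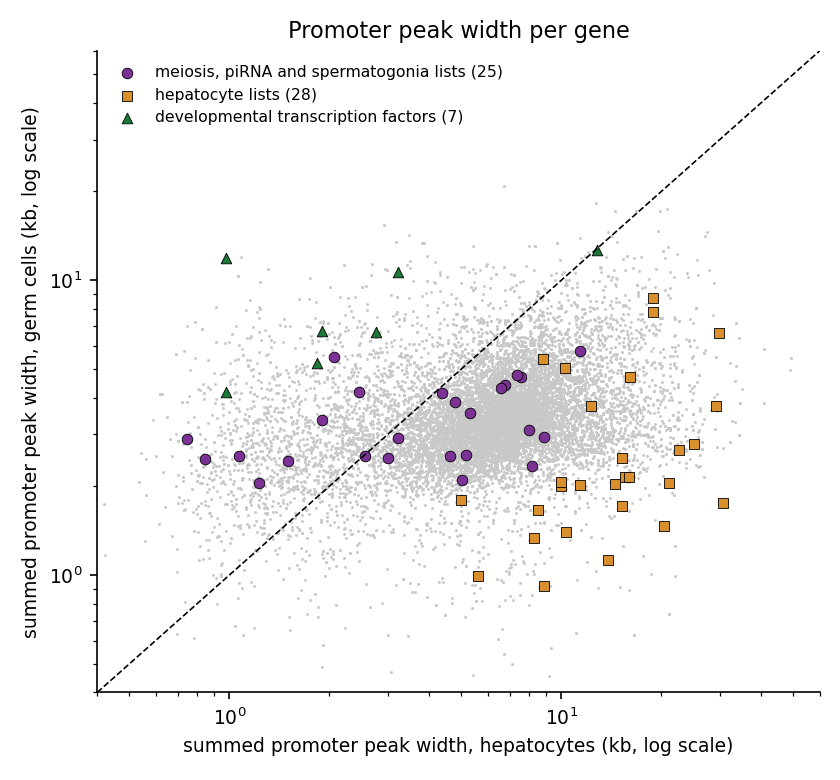
Summed promoter peak width per gene (kb, log scales) in germ cells (vertical) against hepatocytes (horizontal) for 14295 genes (grey). Of the genes with a peak in both, the 28 of the hepatocyte lists (orange) lie below the dashed line of equal width, and 6 of 7 developmental factors (green) lie above it.

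In the matched peaks, reads were compared with edgeR's quasi-likelihood test with strain as a covariate, and a peak was called at a Benjamini-Hochberg adjusted p under 0.05. Of the 8412 pairs 6493 (77.2%) were called, 3317 higher in germ cells (39.4%) and 3176 lower (37.8%). The median log2 difference, germ cells minus hepatocytes, was 0.01. By over 2-fold 1422 were higher in germ cells (16.9%) and 944 lower (11.2%). At promoters 886 of 5721 (15.5%) were higher in germ cells by over 2-fold and 354 (6.19%) lower, and away from promoters 536 of 2691 (19.9%) were higher and 590 (21.9%) lower. In 4737 pairs (56.3%) no germ cell library overlapped a hepatocyte library in CPM.

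Among matched promoters the 10 with the largest differences included genes of the germ line. Sall4, a zinc finger factor of spermatogonia (chromosome 2, 168764182 to 168768352), had 42.3, 50.6 and 54.9 CPM (lowest, median and highest library) in germ cells, against 1.87, 4.06 and 7.75 CPM in hepatocytes. Its log2 difference was 3.504 (SE 0.20, adjusted p = 8.77e-11). Rec114, needed to make meiotic double-strand breaks (chromosome 9, 58740618 to 58742663), had 17.6, 22.1 and 24.3 CPM in germ cells and 1.18, 2.55 and 3.55 CPM in hepatocytes, a log2 difference of 3.19 (SE 0.18). No library overlapped between the cell types at either gene, which the rule that chose these 10 promoters required. Aldh1a2, which makes retinoic acid (chromosome 9, 71214159 to 71218323), stood at 75.3 ± 3.31 CPM in germ cells and 9.34 ± 1.39 CPM in hepatocytes (mean ± SD, n = 6 libraries of each cell type here and below). Zfyve28 (3.87), Zfp827 (3.39), Rgma (3.13), Trim35 (3.12), Parp8 (3.06), Cmtm3 (2.99) and Dzip1l (2.98) completed this set, with log2 differences in parentheses. The hepatocyte peaks of Zfyve28, Sall4, Rec114, Cmtm3 and Dzip1l were found on the D2 genome alone and that of Rgma on the B6 genome alone. Sall4 had a log2 difference of 4.28 in B6 libraries and 2.97 in D2 libraries, and Zfyve28 one of 5.06 in B6 and 3.21 in D2.

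The 10 matched promoters with the lowest differences included genes of liver metabolism. Aldh1a1, a retinaldehyde dehydrogenase (chromosome 19, 20600246 to 20607729), had 24.4, 40.8 and 59.9 CPM in germ cells, against 231, 251 and 270.2 CPM in hepatocytes. Its log2 difference was -2.66 (SE 0.16, adjusted p = 8.7e-09). Tm6sf2, a gene of lipoprotein secretion, stood at 7.45 ± 2.16 CPM in germ cells and 48.2 ± 5.86 CPM in hepatocytes. Germ cell libraries lay below all hepatocyte libraries at both genes, which the rule that chose this set also required. Slc23a1, a vitamin C transporter, had the lowest difference (-3.58), at 5.94 ± 1.03 CPM in germ cells and 72.3 ± 10.6 CPM in hepatocytes. Zbtb20 (-3.39), Olfml1 (-3.14), Mbnl1 (-2.78), Runx2 (-2.67), Rgs16 (-2.60) and Ifitm3 (-2.58) also belonged to this set.

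Because a gene can have promoter peaks that overlap but miss the 50% limit, reads were also summed over all promoter peaks of each gene, for the 14295 genes with such a peak in both cell types. Of these sums 11875 were called (83.1%), 6061 higher in germ cells (42.4%) and 5814 lower (40.7%). By over 2-fold 2196 were higher (15.4%) and 2196 lower (15.4%). Of all 21910 protein-coding genes 17.5% had a promoter peak in germ cells only, 4.65% in hepatocytes only, 51.3% in both and 26.6% in neither, and the counts of each list below are to be read against these shares. The gene lists were read in the sums and, for members with a promoter peak in 1 cell type, as levels without a test. Dividing reads by peak width moved the median of all sums to 0.91 on the log2 scale, since germ cell peaks were narrower, and 6141 sums were then over 2-fold higher in germ cells and 404 lower. The values below are reads per promoter, and a value called per width is to be read against that median of 0.91. Without TMM scaling the median was -0.23.

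**Figure D3:**
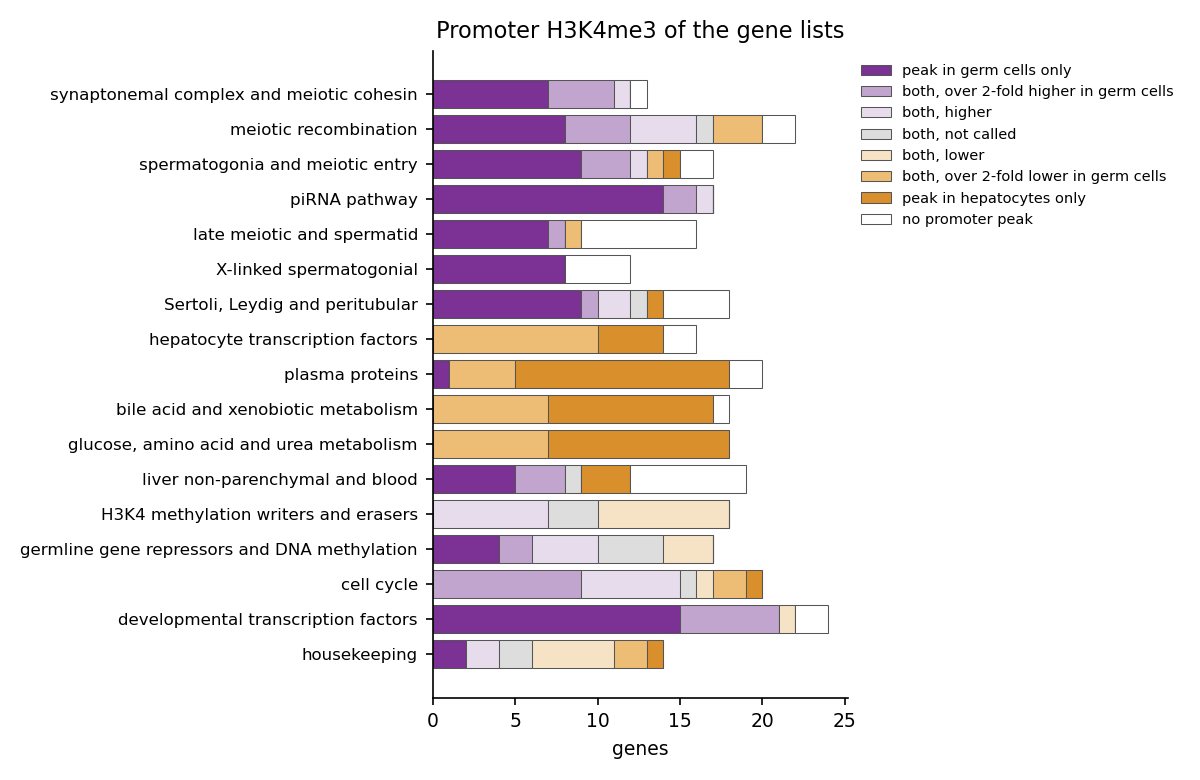
Number of genes (linear axis) in each list by the state of the promoter, from a peak in germ cells only (dark purple) to a peak in hepatocytes only (dark orange), with called differences between them. The piRNA list had 14 of 17 genes with a peak in germ cells only, and the glucose, amino acid and urea list 11 of 18 in hepatocytes only.

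Genes of the synaptonemal complex and of meiotic cohesin carried the mark mainly in germ cells. Of 13 annotated members 7 had a promoter peak in germ cells only, 5 in both and 0 in hepatocytes only, and all 5 in both were higher in germ cells, 4 by over 2-fold (list median 3.09, against 0.02 over all sums, and 2.27 per width, against 0.91). The share with a peak in germ cells only was 17.5% over all protein-coding genes. Sycp3 had 65.5, 88.8 and 91.4 CPM in the germ cell libraries, Sycp2 52.8, 70.9 and 88.9 CPM, and Sycp1, the transverse filament protein, 39.9, 54.3 and 58.1 CPM, with no hepatocyte peak. Hormad1 stood at 38.7 ± 9.54 CPM. Among genes with a peak in both, Hormad2, a partner of the unsynapsed axis, had 29.2, 40.7 and 59.3 CPM in germ cells, against 0.61, 2.13 and 3.53 CPM in hepatocytes. The log2 difference was 4.30 (SE 0.29, adjusted p = 1.97e-09) over peaks of 2904 bases in germ cells and 747 bases in hepatocytes, and 2.34 per width. Its lowest germ cell library lay above its highest hepatocyte library. Stag3, the meiotic cohesin subunit, stood at 55.9 ± 8.96 CPM in germ cells and 6.56 ± 1.41 CPM in hepatocytes (log2 3.09, SE 0.13), in a peak shared with Gpc2. Rec8, the meiotic kleisin, stood at 25.7 ± 4.46 CPM and 2.87 ± 1.89 CPM (log2 3.28, SE 0.31). Smc1b had no promoter peak in either cell type.

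Recombination genes were split more evenly. Of 22 annotated members 8 had a peak in germ cells only and 12 in both, near the 51.3% in both over all protein-coding genes, and of these 12 8 were higher in germ cells, 4 by over 2-fold, and 3 lower, all by over 2-fold. Dmc1 had 42.9, 52.2 and 55.6 CPM in germ cells and Spo11, which makes the breaks, 15.3, 20.8 and 25.7 CPM, both without a hepatocyte peak. Ankrd31, a partner of the break machinery, had 41.0, 57.1 and 62.2 CPM in germ cells, against 1.03, 2.01 and 5.63 CPM in hepatocytes (log2 4.53, SE 0.29). Mei4, another break factor, stood at 44.0 ± 4.39 CPM and 2.88 ± 1.06 CPM (log2 3.97, SE 0.16, and 2.10 in BXD75 and BXD87). At both genes the cell types were far apart.

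Prdm9 itself carried the mark in hepatocytes too. Its promoter had 99.6, 115 and 126 CPM in germ cells, against 66.9, 67.5 and 73.9 CPM in hepatocytes, a difference of 0.70 on the log2 scale (SE 0.06, adjusted p = 1.38e-09). As a matched pair the same peaks differed less, by 0.38 (SE 0.06), under the scaling of the matched peaks. Zcwpw1, a reader of the marks that PRDM9 leaves, stood at 170 ± 11.97 CPM in germ cells and 123 ± 2.84 CPM in hepatocytes (log2 0.47, SE 0.05), in a peak shared with Mepce and, in hepatocytes, Ppp1r35. The 3 members that were lower each shared a hepatocyte peak with a neighbour: Msh4 with Rabggtb (log2 -1.97), Msh5 with Clic1 (-1.47) and Spata22 with Aspa (-1.63). Which gene of the pair the reads belong to cannot be told apart. Per width Msh5 stood at 0.12 and Msh4 at -0.17, and neither was called, whereas Spata22 was still called lower, at -0.28.

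The piRNA pathway, which silences transposons in germ cells, was the list with the largest share of peaks seen in germ cells only. Of 17 members 14 had a promoter peak in germ cells only, at mean levels of 6.8 to 50.2 CPM, and 3 in both. Piwil2, an Argonaute protein of the pathway, had 31.3, 39.6 and 53.1 CPM in germ cells, Mael 26.2, 37.6 and 42.8 CPM, and Tdrd1, a tudor scaffold, 20.2, 26.8 and 35.4 CPM. Tdrkh, which tethers PIWI proteins at mitochondria, stood at 59.7 ± 10.1 CPM in germ cells and 28.6 ± 3.995 CPM in hepatocytes (log2 1.05, SE 0.11). Mybl1, the transcription factor that drives pachytene piRNA loci, stood at 76.0 ± 1.37 CPM and 59.9 ± 5.95 CPM (log2 0.34, SE 0.06, and 0.09 without TMM scaling, where it was not called). The 3 genes with a peak in both were higher in germ cells, 2 by over 2-fold, though none by over 2-fold without TMM scaling or in BXD75 and BXD87.

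Genes of spermatogonia and of entry into meiosis had a peak in germ cells only at 9 of 17 members, in hepatocytes only at 1 and in both at 5, of which 4 were higher in germ cells and 1 lower. Dazl, an RNA-binding protein of germ cells, had 75.04, 97.95 and 124.6 CPM in germ cells, against 14.8, 15.5 and 16.9 CPM in hepatocytes (log2 2.63, SE 0.11). Ddx4, the germ cell helicase, stood at 34.2 ± 8.16 CPM, Stra8, the meiotic initiator, at 28.9 ± 4.87 CPM and Dmrt1, a germ line and Sertoli factor, at 63.5 ± 3.63 CPM, with no hepatocyte peak. Gfra1, a receptor subunit of spermatogonial stem cells, was lower in germ cells, at 38.8 ± 4.96 CPM against 105 ± 13.9 CPM in hepatocytes (log2 -1.41, SE 0.08). Zbtb16, a stem cell factor, had a promoter peak in hepatocytes only, at 74.5 ± 11.0 CPM.

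Later genes of spermatogenesis were weakly marked. Of 16 late meiotic and spermatid members 7 had a peak in germ cells only and 7 had none. Prm1 and Tnp1, which pack sperm chromatin, stood at 2.50 ± 1.62 and 6.76 ± 1.61 CPM in germ cells, below the median of germ cell promoter peaks of 1 list (8.46 CPM). Hspa2, a chaperone of pachytene spermatocytes, was an exception, at 125 ± 4.97 CPM in germ cells and 41.8 ± 6.17 CPM in hepatocytes (log2 1.59, SE 0.08). Crem, an activator of spermatid genes that somatic cells also use, was lower in germ cells (log2 -1.005, SE 0.07, but 0.22 per width). Of 12 X-linked spermatogonial genes 8 had a peak in germ cells only, among them Taf7l (39.0 ± 6.81 CPM) and Tex11 (28.0 ± 5.94 CPM), and 4 had none. Mageb4 had 0.39 CPM on average in B6 germ cells and 18.3 CPM in D2 germ cells.

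**Figure D4:**
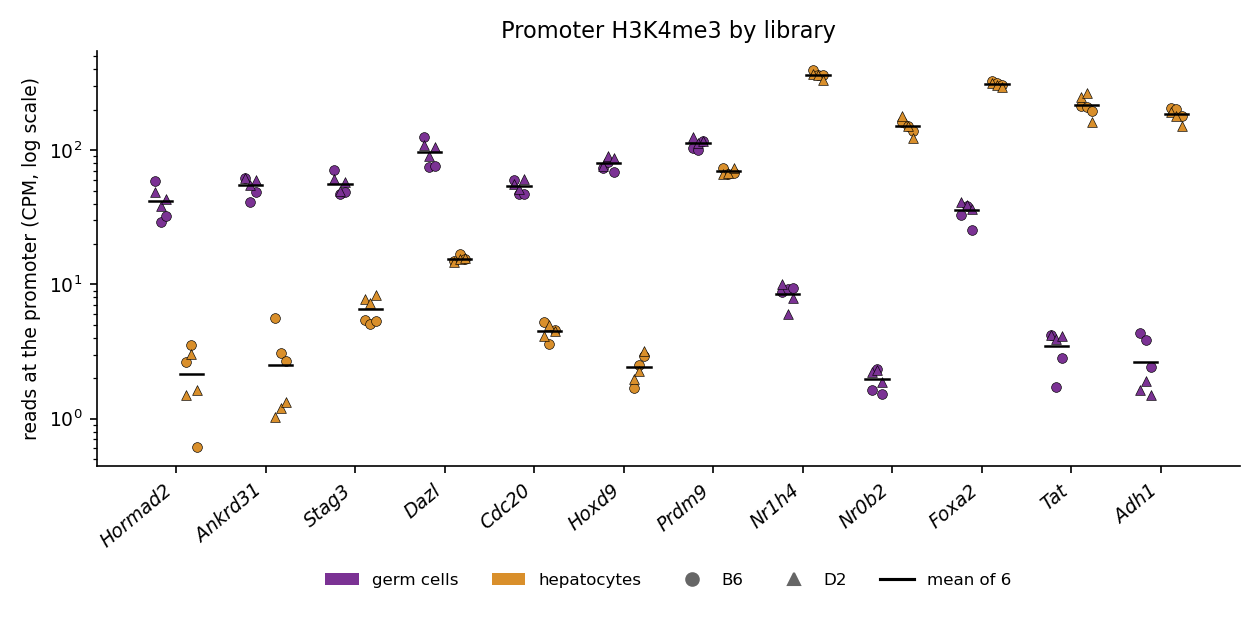
Reads at the promoter (CPM, log scale) in each of the 12 libraries for genes with a promoter peak in both cell types, germ cells (purple) left of hepatocytes (orange), circles B6, triangles D2, bars the mean of 6. No gene shown has overlapping cell types, from Hormad2 (41.9 against 2.15 CPM) to Adh1 (2.62 against 185 CPM).

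Promoters of hepatocyte transcription factors were lower in germ cells. Of 16 members 4 had a promoter peak in hepatocytes only and 10 in both, and all 10 were lower in germ cells by over 2-fold (list median -3.01). Nr0b2, a bile acid responsive repressor, had 1.53, 2.06 and 2.34 CPM in germ cells, against 123, 152 and 178 CPM in hepatocytes (log2 -6.15, SE 0.11, adjusted p = 1.61e-18, and -2.88 per width, over 920 bases in germ cells and 8880 bases in hepatocytes). Nr1h4, the bile acid receptor, had 6.03, 8.94 and 10.1 CPM in germ cells and 331, 363 and 398 CPM in hepatocytes (log2 -5.41, SE 0.10, and -1.28 per width). The groups were separated by more than a factor of 10 at both genes.

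Levels in germ cells varied among these factors. Foxa2 stood at 35.6 ± 5.65 CPM in germ cells and 311 ± 10.9 CPM in hepatocytes (log2 -3.11, SE 0.08), and Cebpa, which also acts in blood and fat, at 58.7 ± 6.36 CPM and 150 ± 22.6 CPM (log2 -1.34, SE 0.10). Hnf4a and Foxa1 had a promoter peak in hepatocytes only, at 348 ± 38.8 and 284 ± 9.10 CPM, although a germ cell peak away from their own start overlapped each, as also at Fgb, Cyp7a1, Cps1 and Pck1. Per width 8 of the 10 factors were lower in germ cells, 4 by over 2-fold, and 1 was higher. Foxa2 stood at -0.93 and Cebpa at -0.31 on that scale, both still called.

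Genes of secreted plasma proteins were marked in hepatocytes and largely without a germ cell peak. Of 20 members 13 had a promoter peak in hepatocytes only, 4 in both and 1 in germ cells only, and the 4 in both were lower in germ cells by over 2-fold (median -3.57). Per width 3 were lower, 2 by over 2-fold (median -0.98). Alb had 84.9, 133 and 184 CPM in hepatocytes, Serpinc1 267, 292 and 367 CPM and Fgb, a fibrinogen chain whose peak also covers Plrg1, 289, 317 and 347 CPM. Apoa1, the main protein of HDL, stood at 16.6 ± 1.95 CPM in germ cells and 207 ± 31.1 CPM in hepatocytes (log2 -3.63, SE 0.11), in a hepatocyte peak shared with Apoc3. Trf, transferrin, stood at 5.06 ± 1.34 CPM and 128 ± 24.9 CPM (log2 -4.57, SE 0.18). The gene with a peak in germ cells only was Apoa2, whose level was 15.5 CPM in B6 germ cells and 1.62 CPM in D2 germ cells.

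Bile acid and xenobiotic genes had a peak in hepatocytes only at 10 of 18 annotated members and in both at 7, all 7 lower in germ cells by over 2-fold (median -4.78). Per width all 7 were lower, 4 by over 2-fold (median -1.56). Adh1, the alcohol dehydrogenase, had 1.51, 2.18 and 4.35 CPM in germ cells, against 152, 187 and 205 CPM in hepatocytes (log2 -6.24, SE 0.14, and -2.63 per width, over 1123 bases in germ cells and 13800 bases in hepatocytes). Slc10a1, the bile acid importer, stood at 5.94 ± 1.76 CPM and 249 ± 24.6 CPM (log2 -5.36, SE 0.13). Cyp2c29 had the highest mean of all hepatocyte promoter peaks that overlapped no germ cell peak, with 283, 320 and 379 CPM. Cyp7a1, the rate-limiting enzyme of bile acid synthesis, stood at 125 ± 22.3 CPM in hepatocytes.

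Genes of glucose, amino acid and urea metabolism had a peak in hepatocytes only at 11 of 18 members and in both at 7, all 7 lower in germ cells by over 2-fold (median -4.39). Per width 4 were lower, 1 was higher and the median was -1.52. Cps1, which starts the urea cycle, had 377.8, 451.5 and 555.1 CPM in hepatocytes over 35723 bases, and G6pc 113, 183 and 201 CPM. Tat, which degrades tyrosine, had 1.73, 4.04 and 4.23 CPM in germ cells and 162, 211 and 267 CPM in hepatocytes (log2 -5.97, SE 0.17). Arg1, the last enzyme of the urea cycle, stood at 5.58 ± 2.09 CPM and 165 ± 29.5 CPM (log2 -5.05, SE 0.20). Pck1, of gluconeogenesis, ranged more widely among hepatocyte libraries, with 35.7, 87.4 and 118 CPM. In bulk libraries, fewer cells that carry the mark and less of the mark per cell cannot be told apart.

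Markers of somatic testis cells were also read. Of 18 Sertoli, Leydig and peritubular members 9 had a promoter peak in germ cells only, 1 in hepatocytes only and 4 in both, where 17.5%, 4.65% and 51.3% of all protein-coding genes did, so the share with any germ cell peak was near that of all genes. Their summed level ran from 528 to 698 CPM per germ cell library and from 218 to 279 CPM per hepatocyte library. These totals add peaks of 1 list to sums per gene, whose CPM scales differ, and so are approximate. Wt1, a Sertoli cell factor, had 104, 125 and 143 CPM in germ cells over 13849 bases and no hepatocyte peak. Amh, the Sertoli hormone, stood at 43.2 ± 3.48 CPM in germ cells and 8.63 ± 1.86 CPM in hepatocytes (log2 2.33, SE 0.11, and 1.04 per width), in a germ cell peak shared with Jsrp1. Sox9 stood at 86.8 ± 14.3 CPM and 53.8 ± 6.08 CPM (log2 0.69, SE 0.10), a call lost in BXD75 and BXD87 (0.33) and per width (-0.07). Of the 4 genes with a peak in both 3 were higher in germ cells, and in BXD75 and BXD87 1 was higher and 1 lower. Without TMM scaling 3 were higher and 1 lower. Per width 1 was higher, and the list median was 0.11, below the 0.91 of all sums. Gata4, used in both organs, was not called, with 95.5 ± 11.6 CPM in germ cells and 100.2 ± 2.24 CPM in hepatocytes. The Leydig genes Star, Cyp11a1, Insl3 and Nr5a1 had no promoter peak in either, and Hsd3b1, another steroid enzyme gene, was higher in germ cells, at 5.18 ± 3.61 CPM and 2.45 ± 0.51 CPM (log2 0.93, SE 0.29, adjusted p = 0.00675), with libraries that overlapped. Cyp17a1, a steroid enzyme, had a peak in hepatocytes only (90.1 ± 23.1 CPM). The part of somatic testis cells in the germ cell values was not tested.

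Markers of other liver and blood cells were few in hepatocytes. Of 19 members 7 had a promoter peak in hepatocytes, with a summed level of 107 to 183 CPM per library, and 9 in germ cells, with 192 to 230 CPM. These totals mix the CPM scales in the same way. Clec4f, Adgre1, Csf1r, Stab1, Lyve1 and Pecam1 had none in either. Of the 4 with a peak in both 3 were higher in germ cells by over 2-fold, among them Kdr, an endothelial receptor, at 38.3 ± 5.58 CPM in germ cells and 10.7 ± 2.77 CPM in hepatocytes (log2 1.85, SE 0.16). Stab2, a sinusoidal endothelial receptor with a hepatocyte peak only, stood at 9.77 CPM in B6 and 52.4 CPM in D2 hepatocytes.

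Cell cycle promoters were mostly higher in germ cells. Of 20 members 19 had a peak in both and 1, Mki67, in hepatocytes only (39.2 ± 6.07 CPM). Of the 19, 15 were higher in germ cells (9 by over 2-fold) and 3 lower (2 by over 2-fold), with a median of 0.96. Over 2-fold higher were 6 without TMM scaling (median 0.71) and 4 in BXD75 and BXD87 (median 0.63). Cdc20, an activator of the anaphase-promoting complex, had 46.9, 53.9 and 60.6 CPM in germ cells, against 3.62, 4.55 and 5.26 CPM in hepatocytes (log2 3.56, SE 0.11, and 2.19 in BXD75 and BXD87). Ccnb2, a mitotic cyclin, stood at 43.6 ± 7.75 CPM and 5.14 ± 0.90 CPM (log2 3.07, SE 0.15), and Cdk1, its kinase, at 50.9 ± 4.11 CPM and 17.5 ± 2.54 CPM (log2 1.54, SE 0.10, and 0.79 in BXD75 and BXD87). Lower were Mcm2, of the replication helicase (log2 -1.46, SE 0.06), and the cell cycle inhibitor Cdkn1b (log2 -1.28, SE 0.06). Per width both stood above 0, at 0.57 and 0.38, where all 19 were higher in germ cells and the list median was 1.51.

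Transcription factors that pattern the embryo, which are silent in most adult cells, also stood on the germ cell side. Of 24 members 15 had a promoter peak in germ cells only and 7 in both, of which 6 were over 2-fold higher in germ cells and 1, Gata6, was lower (log2 -0.74, SE 0.07). Per width 2 of the 7 were over 2-fold higher, and the list median was 0.85, below the 0.91 of all sums. Hoxd9 had 68.21, 79.24 and 89.98 CPM in germ cells, against 1.69, 2.39 and 3.19 CPM in hepatocytes (log2 5.01, SE 0.12, with 3.35 in BXD75 and BXD87 and 1.41 per width). Its promoter peak covered 11905 bases in germ cells, where it is shared with Hoxd8, and 978 bases in hepatocytes. Pax6 stood at 72.5 ± 8.14 CPM and 13.4 ± 1.98 CPM (log2 2.43, SE 0.10, and 1.54 in BXD75 and BXD87), and Lhx2 at 67.8 ± 6.08 CPM in germ cells with no hepatocyte peak.

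The enzymes that write and erase H3K4 methylation had a promoter peak in both cell types at all 18 members, and none differed by over 2-fold. The shares called higher and lower were near those of all sums (42.4% and 40.7%). Higher in germ cells were 7, among them Prdm9 and Kmt2a (log2 0.57, SE 0.06, but 0.09 and not called in BXD75 and BXD87), and lower were 8, among them Men1 (log2 -0.78, SE 0.06). This split depended on the scaling, with 4 higher without TMM, 17 per width (11 by over 2-fold) and 3 in BXD75 and BXD87, and Men1 stood at 1.33 per width. Among repressors of germ line genes and DNA methylation factors 13 of 17 had a peak in both, 6 higher in germ cells (2 by over 2-fold) and 3 lower, with 5 of each without TMM and 12 higher per width. Uhrf1, a partner of the maintenance methyltransferase, stood at 74.5 ± 8.75 CPM in germ cells and 18.4 ± 1.44 CPM in hepatocytes (log2 2.02, SE 0.08, but 0.76 in BXD75 and BXD87). Mga, a subunit of the E2F6 complex that represses meiotic genes in other cells, stood at 87.1 ± 9.40 CPM and 37.0 ± 1.71 CPM (log2 1.23, SE 0.07).

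Housekeeping promoters served as a control of the lists. Of 14 members 11 had a peak in both, 2 higher in germ cells, 7 lower (2 by over 2-fold) and 2 not called, with a median of -0.39. Per width the split turned to 10 higher and 0 lower, with a median of 0.81, below the 0.91 of all sums. Actb, cytoplasmic actin, stood at 89.7 ± 7.88 CPM in germ cells and 50.5 ± 7.73 CPM in hepatocytes (log2 0.83, SE 0.09, but 0.20 and not called in BXD75 and BXD87). B2m, a subunit of histocompatibility antigens, stood at 55.7 ± 6.28 CPM and 188 ± 8.72 CPM (log2 -1.77, SE 0.07, but 0.81 per width). Polr2a and Hsp90ab1 had a peak in germ cells only, at 95.8 ± 4.55 and 93.5 ± 8.69 CPM, and Eef1a1 in hepatocytes only, at 69.8 ± 8.70 CPM. All 3 genes work in every cell, and their promoters overlapped a peak in the cardiomyocyte list of the series. The deposited tables give no count of the other cell type at these peaks.

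The peaks of 1 list were also set beside the cardiomyocyte list, which tells nothing of the mark in the other cell type. Of 8252 germ cell promoter peaks that touched no hepatocyte peak 26.3% overlapped a cardiomyocyte peak, but of the 227 at 50 CPM or more 86.8% did. Sin3a, a corepressor with the highest level among these promoters (237 ± 13.2 CPM), belonged to this group, as did Wt1. Of 1716 hepatocyte promoter peaks that touched no germ cell peak 33.4% overlapped a cardiomyocyte peak, and of the 508 at 50 CPM or more 47.4%. Among list members with a peak in germ cells only, 0 of 7 synaptonemal, 1 of 8 recombination, 1 of 14 piRNA and 0 of 8 X-linked genes had a cardiomyocyte peak, and so did 2 of 9 spermatogonial, 0 of 7 late meiotic, 6 of 9 Sertoli, Leydig and peritubular, 3 of 5 liver non-parenchymal, 2 of 4 repressor and 11 of 15 developmental genes. Among those with a peak in hepatocytes only, 2 of 4 hepatocyte transcription factor, 2 of 13 plasma protein, 1 of 10 bile acid and xenobiotic and 2 of 11 glucose, amino acid and urea genes had one.

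Relative to hepatocytes, matched peaks of the X chromosome stood below those of the autosomes in germ cells. The median log2 difference of the 313 matched X peaks was -0.28, against -0.11 to 0.10 over 19 autosomes. Germ cell library B62 stood apart at -0.09, and the other germ cell libraries at -0.27 to -0.33. The share of reads in X peaks was not lower, at 1.83 to 2.31% per germ cell library and 1.82 to 1.94% per hepatocyte library. In BXD75 and BXD87 the X median less the autosome median was -0.08, against -0.30 in the founders. Xist, the RNA that silences an X chromosome in females, had 21.3, 31.6 and 41.5 CPM in germ cells, against 135, 153 and 163 CPM in hepatocytes (log2 -2.33, SE 0.13). Per width Xist stood at -0.33, still called, against a median of 0.91 over all sums. Tsix, its antisense repressor, stood at 25.6 ± 5.07 CPM and 6.73 ± 3.33 CPM (log2 1.96, SE 0.24, and 0.95 per width). Jpx, an activator of Xist, had a promoter peak in hepatocytes only (133 ± 6.15 CPM), and Ftx was lower in germ cells (log2 -1.73, SE 0.09, but -0.03 and not called per width). Males have a single X chromosome and females have a pair, and sex cannot be told apart from cell type here. No promoter peak was present at the 9 Y-linked genes of the annotation.

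The difference between the founders was then compared between the cell types, as B6 minus D2 in germ cells less B6 minus D2 in hepatocytes. It was called at 760 of 8412 matched peaks (9.03%), at 6.59% of promoter peaks (377) and 14.2% of distal peaks (383). The founder difference was larger in germ cells at 254 of them and in hepatocytes at 506, and its sign was opposite at 494, at 11 with more than 1 log2 unit in both. In 274 a peak of the pair was found on 1 founder genome only, where reads of the other founder may not have been counted alike.

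At Robo1, an axon guidance receptor (chromosome 16, 72661918 to 72665332), germ cells stood at 39.6 CPM in B6 and 38.6 CPM in D2, and hepatocytes at 54.4 CPM in B6 and 7.496 CPM in D2 (n = 3 each). The difference of differences was -2.81 on the log2 scale (SE 0.18, adjusted p = 4.91e-10). Rnf144b, a ubiquitin ligase gene (chromosome 13, 47121257 to 47124396), showed the same form, with 41.6 and 37.4 CPM in B6 and D2 germ cells and 52.6 and 7.28 CPM in B6 and D2 hepatocytes (-2.70, SE 0.20). Both peaks were found on both genomes. The founders thus overlapped in germ cells at both genes, and in hepatocytes every B6 library lay above every D2 library.

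The other promoters with the smallest p had a hepatocyte peak on 1 founder genome only. Acpp, prostatic acid phosphatase, stood at 7.52 and 15.2 CPM in B6 and D2 germ cells and at 27.8 and 1.67 CPM in B6 and D2 hepatocytes (-5.05, SE 0.26) and so with opposite directions in the cell types. Fggy, a sugar kinase, stood at 31.3 and 13.5 CPM in germ cells and 47.1 and 2.94 CPM in hepatocytes (-2.77, SE 0.22), in the same order of strains. Mrap2, a melanocortin receptor accessory protein, stood at 16.0 and 19.5 CPM in germ cells and 1.23 and 28.5 CPM in hepatocytes (4.31, SE 0.25). Vipr2, a receptor for a gut peptide, stood at 16.5 and 22.2 CPM in germ cells and 2.65 and 20.8 CPM in hepatocytes (2.54, SE 0.23).

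**Figure D5:**
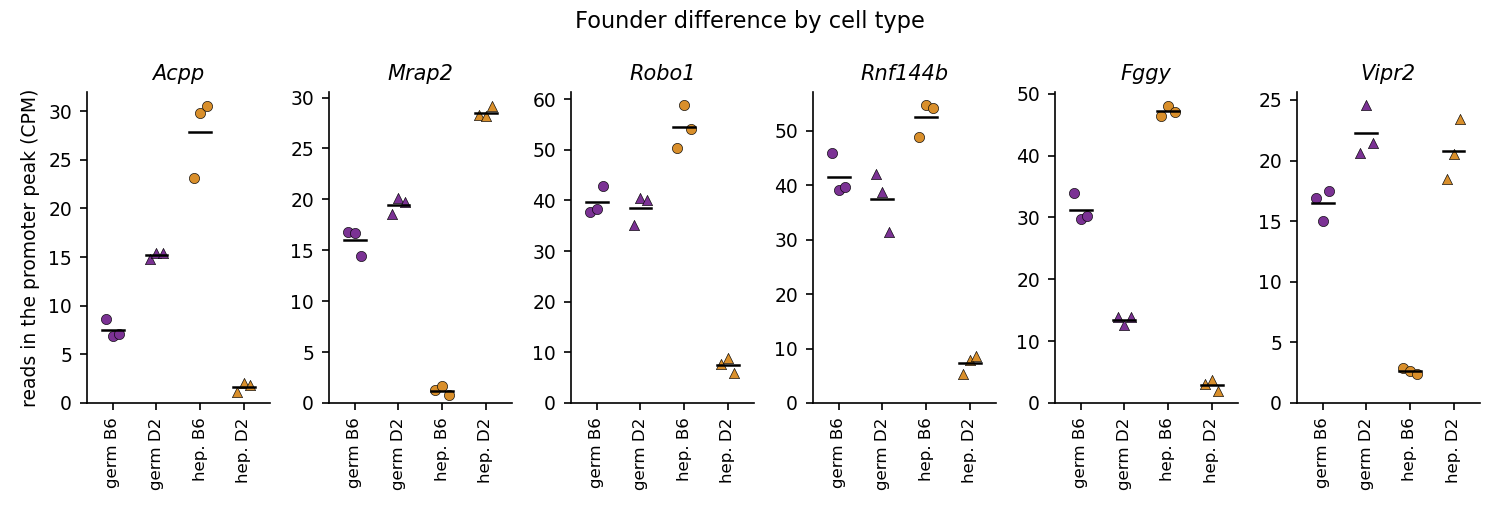
Reads in the promoter peak (CPM, linear axes from 0) of the 6 promoters with the smallest p for a founder difference that depends on cell type, germ cells (purple) left of hepatocytes (orange), points the 3 libraries of each strain, bars their mean. At Robo1 hepatocytes stood at 54.4 CPM in B6 and 7.496 CPM in D2, while germ cells stood at 39.6 and 38.6 CPM.

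Sequence features, which played no part in choosing the members, were read in the 300 bases from 250 before to 50 after the start of 21724 protein-coding genes. A CpG ratio (observed over expected) above 0.6 was found in 36.5% of promoters with a peak in germ cells only (95% Wilson interval 35.0 to 38.0%) and in 37.8% of those with a peak in hepatocytes only (34.8 to 40.8%). Promoters with a peak in both reached 72.4%, those with none 4.24%, and all promoters 46.7%. All 20 plasma protein promoters and all 18 bile acid and xenobiotic promoters lay at or below 0.6, with medians of 0.21 and 0.15, whereas 8 of 13 synaptonemal promoters lay above it, with a median of 0.63. Other lists lay between or crossed this order. Above 0.6 were 16 of 22 recombination, 10 of 17 piRNA, 8 of 17 spermatogonial, 2 of 16 late meiotic (median 0.25), 5 of 16 hepatocyte transcription factor (0.39) and 2 of 18 glucose, amino acid and urea promoters.

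The E-box CACGTG, searched on both strands like every motif, was present in 7.84% of all promoters and in 7.64% of those with a peak in germ cells only. It was present in 5 of 13 synaptonemal promoters (Sycp1, Sycp3, Tex12, Stag3 and Hormad1), in 6 of 17 piRNA promoters (Piwil1, Mael, Tdrd1, Tdrd9, Mov10l1 and Pld6) and in 0 of 20 plasma protein promoters. Other lists held it in 4 of 22 recombination, 2 of 17 spermatogonial, 0 of 16 late meiotic, 4 of 17 Sertoli, Leydig and peritubular and 3 of 16 hepatocyte transcription factor promoters. Promoters with a peak in both held it in 10.2%. The E2F motif GGCGGGAA was present in 3.05% of all promoters and in 7 of 22 recombination promoters, among them Prdm9, Msh5 and Spata22. The HNF4A motif CAAAGTCCA was present in 0.29% of promoters with a peak in germ cells only, 1.47% of those with a peak in hepatocytes only and 0.42% of all. Among the hepatocyte lists it was present in 3 of 18 bile acid and xenobiotic promoters and 1 of 18 of glucose, amino acid and urea metabolism. It was present in 0 of 20 plasma protein and 0 of 16 hepatocyte transcription factor promoters. In 300 bases at the centre of distal peaks it was present in 0.42% of peaks seen in germ cells only (0.36 to 0.49%) and in 1.8% of those seen in hepatocytes only (1.57 to 2.05%). Among matched distal peaks it was present in 0 of 536 over 2-fold higher in germ cells and 12 of 590 over 2-fold lower. Distal centres with a CpG ratio above 0.6 made up 10.3% of those seen in germ cells only and 1.76% of those seen in hepatocytes only. A match is a run of letters and no measure of binding.

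The comparison was also made in BXD75 and BXD87, recombinant inbred lines of the same founders, with 1 germ cell and 3 hepatocyte libraries of each and none of the 12 libraries used above. Of the 1422 matched peaks over 2-fold higher in founder germ cells 1143 (80.4%) were called higher there and 2 lower, where 26% of all peaks were called higher. Of the 944 over 2-fold lower 885 (93.8%) were called lower and 0 higher, where 29.7% of all were called lower. All 20 matched promoters of the sets with the largest and the lowest differences kept their direction and their call. These lines had the same antibody lots as the founders. In 36 germ cell libraries of 33 BXD lines made with the antibody lot of the hepatocytes the 20 promoters also kept direction and call, with Sall4 at 3.54 and Aldh1a1 at -1.97 on the log2 scale, and 500 matched peaks, against 944, were over 2-fold lower in germ cells. These libraries also differ from the founders in strain and number.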

How the data were processed

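H3K4me3 was profiled by ChIP-seq on MNase-digested chromatin, per the labels' protocols. The authors deposited, for each cell type, a peak list and a table of raw read counts per peak and library. The submitters' processing notes name CASAVA 1.8, BWA 0.5.10, MACS 1.4.2 and mm10, with no role or order; the read filters and how peaks were counted are not given in the sources used here. Of 135 samples 12 were compared, 3 in each group, with 6.93 to 30.3 M reads in peaks per library, and the SDs given include the counting error of this depth. B6 germ cell columns carry no replicate number of the labels.

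Peaks were matched with bedtools 2.31.1 at 50% reciprocal overlap, 1 to 1. Counts were tested with edgeR 4.0.16 (limma 3.58.1, R 4.3.3): TMM scaling, filterByExpr, a robust quasi-likelihood fit with strain and cell type, and Benjamini-Hochberg adjustment over all 8412 peaks or all 14295 promoter sums, called at an adjusted p under 0.05. TMM was estimated on the matched peaks for the matched peaks and on the sums for the sums. Library size was all reads in all peaks of a table. CPM is per effective library size, that of the sums for sums per gene and that of the matched peaks for single peaks and peaks of 1 list. These scales differ. Syce2 had 49.3 CPM in germ cells and 18.5 CPM in hepatocytes as a sum, and 44.1 and 20.7 CPM as a matched peak. DESeq2 1.42.0 was an alternative. The fits were tested on simulated data over 8412 peaks, where all of the 100 peaks changed by 1 log2 unit between cell types were recovered, and 82% of those for the founder by cell type term. False calls made up 2.91% and 4.71% of the calls. The simulation gave every peak the same dispersion and changed few peaks. It cannot tell how the fits do with peak lists made separately and most peaks called. Promoters were peaks within 1 kb of a GENCODE M21 basic start, and sequences were read from the RefSeq genome GRCm38.p6 at those starts with pysam 0.24.0. Shares of sequences carry 95% Wilson intervals, which cover counting error only. Tables and figures used Python 3.11.15, pandas 2.3.3, numpy 2.4.6, scipy 1.17.1 and matplotlib 3.10.9.

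The members, the gene lists and the tests were chosen with earlier results of these data known. Named genes were members of the gene lists, the 10 matched promoters with the largest and the 10 with the smallest log2 difference (called, over 2-fold, no overlap of libraries, at least 10 CPM in the higher cell type, no predicted genes), the 8 genes with the highest promoter level in peaks of each list that touched no peak of the other, and the 6 promoters with the smallest p for the founder by cell type term. Of the last but 1 set the text gives the germ cell genes Sin3a and Wt1 and the hepatocyte genes Cyp2c29 and Serpinc1, and the others are given in the closing section. Some genes that the rule names are not reported here. The gene lists named Six6os1, Iho1, Mrp2 and Ube1y1, which the annotation does not hold. Alternatives were other scalings, filters, overlaps, single strains, other lines, the other antibody lot, peak width as an offset and leaving out each library.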

Additional observations from a re-analysis of the deposited data

Results flagged for a closer look

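In 208 groups of 6 libraries examined, 7 held a library far from the other 5, where chance gives about 1 in 20 groups. For the X chromosome, germ cell library B62 had a median log2 difference of -0.0917 from the hepatocyte mean, and the nearest other germ cell library had -0.269. Among germ cell libraries, 1 stood low at Slc23a1 (3.93 CPM, the next at 6.01 CPM), and 1 stood high at Apoa1 (20.3 CPM, the next at 16.6 CPM) and at Actb (106 CPM, the next at 88.8 CPM). Among hepatocyte libraries, 1 stood high at Runx2 (23.0 CPM, the next at 20.3 CPM), at Cdkn1b (186 CPM, the next at 172 CPM) and at Tsix (13.3 CPM, the next at 6.59 CPM). Leaving out any of the 12 libraries kept the direction and the call at each of these genes.

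The founder difference differed between the cell types, by edgeR's interaction term, at 760 matched peaks. On the log2 scale the difference of differences was -5.05 at Acpp, 4.31 at Mrap2, -2.81 at Robo1, -2.70 at Rnf144b, -2.77 at Fggy and 2.54 at Vipr2. The part of peaks found on 1 founder genome only (Acpp, Mrap2, Fggy and Vipr2 in hepatocytes) was not tested, and Robo1 and Rnf144b have peaks on both genomes in both cell types.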

How the results depend on the processing

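Counts moved most with the matching. At 80% reciprocal overlap 1285 of 1765 matched peaks were called (168 over 2-fold higher in germ cells, 220 lower, 201 for the founder by cell type term), and at any overlap 12796 of 15541 (3210, 3024 and 1416 in the same order), since other peaks enter the test. Peak width as an offset left 544 matched peaks over 2-fold lower in germ cells, and 36 germ cell libraries of BXD lines with the hepatocyte antibody lot, which differ in lot, strains and number at once, gave 500. BXD75 and BXD87 alone gave 796 matched peaks and 1415 sums over 2-fold higher in germ cells, with 941 and 2347 over 2-fold lower. Per width 6141 sums were over 2-fold higher and 404 lower, and 4 hepatocyte factors were over 2-fold lower. Of peaks of 1 list 23720 in germ cells and 8752 in hepatocytes had at least 5 CPM, and 20726 hepatocyte peaks had no match at 50%. The X difference was -0.0808 in BXD75 and BXD87. The share of promoters with a CpG ratio above 0.6 was 42.0% in germ cells only at 5 CPM or more, and with the RefSeq table of promoters 39.6% in germ cells only and 41.4% in hepatocytes only. Single genes changed sign per width (B2m 0.81, Cdkn1b 0.38, Crem 0.22, Mcm2 0.57, Men1 1.33, Msh5 0.12, Sox9 -0.07), against a median of 0.91 over all sums, and Gata4 did so in B6 alone (0.04). The causes were not tested.

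Leaving out a library gave 6304 to 6527 matched peaks called, 1390 to 1452 over 2-fold higher, 928 to 994 over 2-fold lower and 581 to 864 for the founder term. In the sums it gave 11621 to 11861 called, 2152 to 2225 over 2-fold higher and 2179 to 2254 over 2-fold lower, 10 to 10 hepatocyte factors, and an X difference of -0.33 to -0.28. The 936 values of named genes without a library kept direction and call. Scaling on housekeeping promoters moved the median of matched peaks by more than 0.1, to 0.19, and peak width to 0.42. Replicate numbers did not pair the D2 libraries (correlations of deviations -0.02, 0.04 and -0.03), and with the replicate block 6192 matched peaks were called in D2 alone, against 6236 without it, with 11085 and 11140 sums in the same order. Alternatives of the sums beyond scaling, filter and libraries left out, those of the X chromosome beyond scaling, the RefSeq promoters and the cardiomyocyte list were chosen after seeing the data.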

Other observations

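The promoter peaks with the highest level among those that touched no peak of the other list can be named for each cell type, 8 in each. In germ cells they were, beside Sin3a and Wt1, Hjurp, a chaperone of the centromeric histone, at 181 ± 45.7 CPM, Snx1, a sorting protein, at 139 ± 9.28 CPM, Tlcd1 at 137 ± 9.83 CPM, Hnrnpu, a nuclear RNA-binding protein, at 129 ± 5.21 CPM, Cox20, an assembly factor of cytochrome oxidase, at 128 ± 5.81 CPM and Meis1, a homeobox factor, at 127 ± 13.3 CPM (mean ± SD, n = 6). All but Hjurp overlapped a cardiomyocyte peak. In hepatocytes they were, beside Cyp2c29 and Serpinc1, Abcc2, a bile canaliculus transporter, at 315 ± 49.2 CPM, Slc38a4, an amino acid transporter, at 310 ± 42.6 CPM, Ugt2b34 and Ugt2b36, which conjugate glucuronic acid, at 278 ± 23.8 and 271 ± 15.3 CPM, Serpind1, a thrombin inhibitor, at 271 ± 18.8 CPM, and the kinase gene Prkd3 at 273 ± 36.8 CPM. None of these overlapped a cardiomyocyte peak. Slc38a4 and Prkd3 also had a promoter peak in germ cells, which the hepatocyte peak named here did not touch.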
